A study of Homo sapiens with 16 samples.

Results

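Retinoic acid is made, inactivated and carried by a small set of enzymes and binding proteins, and 7 of their genes were followed here: CYP26A1, CYP26B1, DHRS3, DHRS9, RDH10, RDH11 and CRABP2. They were taken by gene symbol from the authors' table of 60603 genes, and each symbol matched 1 row. RNA had been sequenced from 16 libraries of 2 established human acute myeloid leukaemia lines, SKNO-1 and U-937. SKNO-1 carries a RUNX1-RUNX1T1 fusion and was grown with GM-CSF at 10 ng/mL, and U-937 is monocyte-like and was grown without it. Each line was kept for 24 h with DMSO, with all-trans retinoic acid (ATRA), with Corin or with both agents, at 0.1 µM each, and every one of the 8 groups had 2 libraries. ATRA is the natural ligand of the retinoic acid receptors. Corin inhibits the histone demethylase LSD1 and the deacetylases of the CoREST complex. Each group is a cell line, not primary leukaemia, and the labels do not say whether the 2 libraries of a group came from separate cultures, so p-values measure only the spread between these libraries.

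As background, retinol is oxidised to retinaldehyde by retinol dehydrogenases such as RDH10 and DHRS9, and retinaldehyde is oxidised further to retinoic acid by the ALDH1A enzymes. DHRS3 and RDH11 reduce retinaldehyde back to retinol, and the CYP26 cytochromes hydroxylate retinoic acid and so inactivate it. CRABP2 binds retinoic acid in the cytoplasm and carries it to its nuclear receptors. CYP26A1 and DHRS3 are long known as direct targets of those receptors, and ATRA is used in myeloid leukaemia to drive differentiation.

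The genome around the gene starts was searched for letters of the classical retinoic acid response element, to show which members hold them. A match was a direct repeat of half-sites spaced by 1, 2 or 5 bases, on either strand, within 2500 bases of the annotated gene start. A half-site was AGGTCA or AGTTCA or GGGTCA or GGTTCA. RDH10 was not examined. Of the other 6 genes, CYP26A1 had 2 repeats spaced by 5 and CRABP2 had 1 repeat spaced by 1. The 3 matches are printed 5′ to 3′ on the strand of the repeat, on GRCh38, with the half-sites in capitals.
CYP26A1, plus strand, chr10:93071911-93071939: ctgcagGGGTCAcaggcGGGTCAggcccg
CYP26A1, minus strand, chr10:93073797-93073825: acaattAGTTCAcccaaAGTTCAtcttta
CRABP2, minus strand, chr1:156706022-156706046: ggatccAGTTCAgGGTTCAatggag
The first CYP26A1 match lies at -1550 bases from the gene start, inside an intron of a long noncoding transcript. The second lies at -82 bases from the start of transcript ENST00000224356 and within the 5′ untranslated region of ENST00000371531, 336 bases after its start. The CRABP2 match lies at -218 bases from its gene start. Over the windows of 20033 protein-coding genes, 1.18% held a repeat spaced by 5, 2.51% a repeat spaced by 1 and 17.54% a repeat spaced by 2, and a window can hold more than 1 kind. These letters were not present in the windows of CYP26B1, DHRS3, DHRS9 and RDH11.

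Counts summed to between 28.4 M and 37.8 M per library. The 2 SKNO-1 DMSO libraries were further apart than other pairs, with an SD of the log2 difference of 0.353 over 9309 genes, against 0.112 to 0.198 in the other 7 groups. The lines matched their labels: HOXA9 and HOXA10, which mark U-937 here, had 0 counts in SKNO-1, and RUNX1T1 was at 26.9 ± 12.3 TPM (transcripts-per-million, scaled by transcript length) in SKNO-1 and 0.005 ± 0.0071 TPM in U-937 with DMSO (SD, n = 2). The 6 myeloid markers PTPRC, CD33, SPI1, MPO, LYZ and CSF1R were present in both lines, with group sums of 856 to 1152 TPM in SKNO-1 and 300 to 1804 TPM in U-937. The markers of 6 other cell types summed to at most 4.29 TPM in any group, which was the B cell list in U-937.

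Levels per transcript length, in TPM, ranked the members differently in the 2 lines. With DMSO, RDH10 at 30.1 ± 6.87 TPM and RDH11 at 27.7 ± 6.67 TPM were the highest in SKNO-1 and their libraries overlapped, while the other 5 members were at or below 0.2 TPM. In U-937 with DMSO, RDH11 came first at 47.7 ± 5.10 TPM and RDH10 second at 7.62 ± 1.07 TPM. DHRS9 at 1.86 ± 0.262 TPM and DHRS3 at 1.65 ± 0.325 TPM followed with overlapping libraries, then CRABP2 at 0.65 ± 0.283 TPM. Under the combination the order was RDH11, CYP26A1, DHRS3, RDH10 in SKNO-1, at 26.0 ± 1.70, 12.9 ± 1.87, 11.3 ± 0.813 and 5.07 ± 0.0495 TPM, and CYP26A1 and DHRS3 overlapped there. In U-937 RDH11 at 77.8 ± 1.71 TPM and DHRS3 at 75.1 ± 4.21 TPM were the highest and overlapped.

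**Figure D1:**
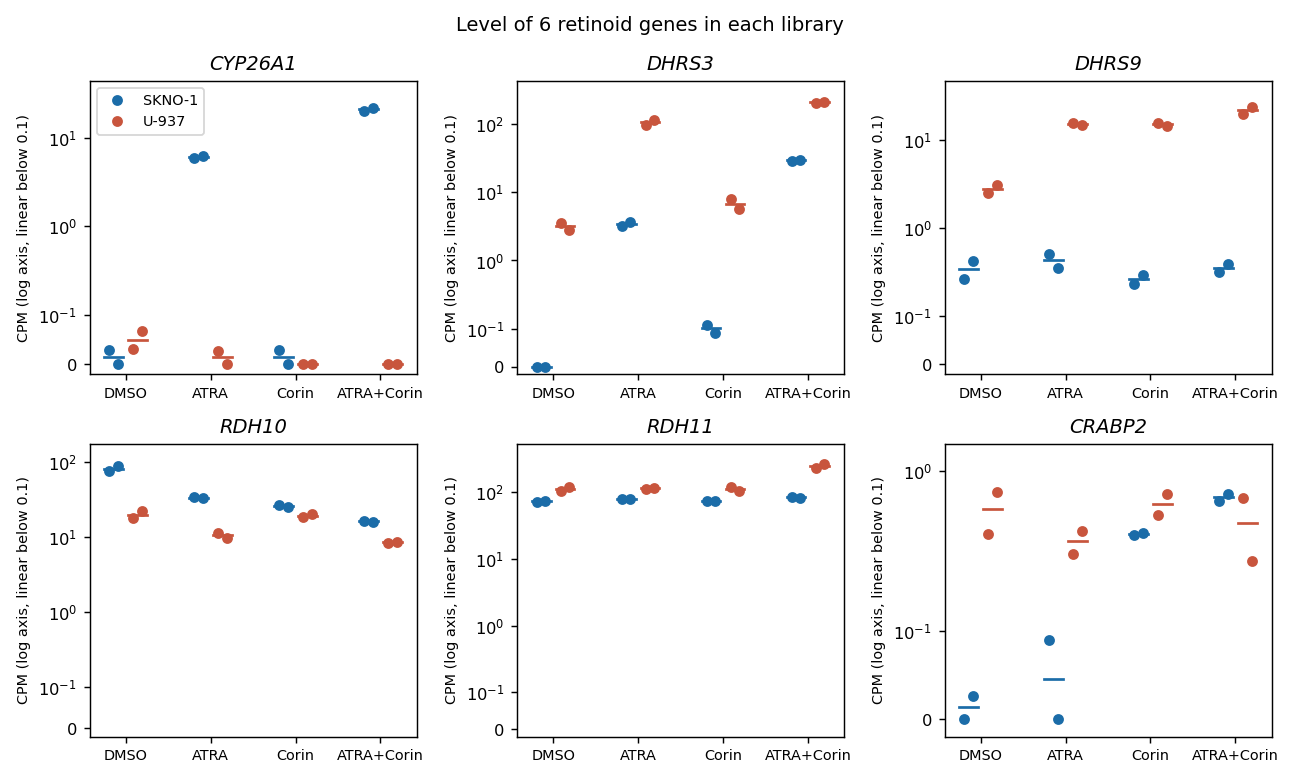
Level of 6 members in each library, in CPM (counts-per-million, logarithmic axis that is linear below 0.1), for the 4 treatments; points are libraries, bars are group means, blue is SKNO-1 and red is U-937. CYP26A1 left the bottom of the axis only in SKNO-1 with ATRA or the combination, DHRS3 rose with ATRA in both lines, DHRS9 changed in U-937 only, RDH10 fell with ATRA in both lines and RDH11 stood higher with both agents, at 234 and 266 CPM in U-937 and by a small step in SKNO-1.

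Treatments were compared on counts with edgeR's quasi-likelihood test and Benjamini-Hochberg adjustment over all genes tested, and a gene with an adjusted p under 0.05 is called changed. CPM below is scaled by trimmed mean of M values within a line and given for replicate 1 and replicate 2. In SKNO-1, 6 of the 7 members passed the filter on low counts (CYP26B1 did not), and in U-937, 5 passed (CYP26A1 and CYP26B1 did not). CYP26A1, DHRS3 and CRABP2, at 0 or 1 counts per DMSO library, passed in SKNO-1 only through treated groups. The filter thus favoured upward calls for them, so these calls are not independent of it. ATRA changed 3 tested members in SKNO-1, CYP26A1 and DHRS3 upwards and RDH10 downwards, where 6.75% of all genes were called. That background was 29.2% and 24.7% without DMSO replicate 1 and 2, 3.17% and 3.06% without ATRA replicate 1 and 2, and 4.45% and 4.48% without Corin replicate 1 and 2. ATRA changed 3 members in U-937 as well, DHRS3 and DHRS9 upwards and RDH10 downwards, with 41.8% of all genes called. Corin alone changed 3 members in SKNO-1, DHRS3 and CRABP2 upwards and RDH10 downwards, with 37.9% of all genes called (21.2% and 19.9% without Corin replicate 1 and 2). Corin alone raised 2 in U-937, DHRS3 and DHRS9, with 12.9% of all genes called and 8.55% called higher. The 12.9% became 7.46% and 7.12% without DMSO replicate 1 and 2. The combination against DMSO changed 5 members in SKNO-1, 4 upwards and 1 downwards (46.7% of all genes), and 4 in U-937, 3 upwards and 1 downwards (65.3%). The 46.7% became 30.7% and 30.0% without combination replicate 1 and 2.

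The median log2 change of the tested members was 0.21 with ATRA, 0.01 with Corin and 2.75 with the combination in SKNO-1, with DHRS3 set at its lower bound and genes at or under 3 counts in both groups set at no change. The median over all genes was 0.01, 0.00 and 0.05 in the same comparisons. The 2.75 lies between RDH11 at 0.19 and CRABP2 at 5.315, with no member near it. It depends on CYP26A1, DHRS3 and CRABP2, which passed the filter only through treated groups, so it is a description only. In U-937 the members' medians were 0.06, 0.11 and 1.18, and those of all genes 0.02, 0.00 and 0.03. The counts come from bulk RNA, so fewer cells of a kind and less RNA per cell cannot be told apart in any change given here.

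CYP26A1, the main retinoic acid hydroxylase, was at or near 0 in SKNO-1 without ATRA and was switched on by it. Its counts were 1 and 0 with DMSO, 1 and 0 with Corin, 196 and 227 with ATRA, and 636 and 724 with both agents. The ATRA and combination libraries did not overlap with any other. On the CPM scale the ATRA group was at 6.01 ± 0.180 and the combination group at 20.8 ± 1.35 (SD, n = 2). The ratio of scaled counts to DMSO was 436 with ATRA, with an exact conditional 95% interval of 77.9 to 17270, and edgeR's adjusted p was 2.71e-05. With the combination it was 1509, with an interval of 270 to 59630, and an adjusted p of 1.35e-06 (edgeR). These intervals cover counting error only. Adding Corin to ATRA raised CYP26A1 by a further 3.46-fold, a log2 change of 1.79 (SE 0.18, adjusted p 0.000176, edgeR).

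In U-937 the same gene stayed at the floor under every treatment. Its counts were 1 and 2 with DMSO, 1 and 0 with ATRA, and 0 in all 4 libraries with Corin or with both agents. A count of 0 over a group allows up to 3 counts. On library totals without further scaling this is 0.0455 CPM with Corin and 0.0453 CPM with the combination. No fold is given, since every U-937 group was at or under 3 counts. CYP26A1 (chromosome 10, 93073475 to 93077885, plus strand) shares 750 exon bases with the long noncoding gene ENSG00000285846 on the same strand, and its estimated counts were fractional in 9 of 16 libraries. That neighbour had 172 counts over all libraries, with 7, 39, 32 and 47 in the SKNO-1 groups with DMSO, ATRA, Corin and both. Its part in the CYP26A1 values was not tested.

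CYP26B1, the second hydroxylase (chromosome 2, 72129238 to 72147862, minus strand), had 1 count over the 16 libraries, in SKNO-1 ATRA replicate 2. The other 15 libraries had 0, so no change in either line was detectable at this depth.

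DHRS3, the retinaldehyde reductase on chromosome 1 (12567910 to 12618210, minus strand), rose with ATRA in both lines and rose again when Corin was added. In SKNO-1 its counts were 0 and 0 with DMSO, 106 and 137 with ATRA, 4 and 3 with Corin, and 933 and 987 with both. All 4 groups were apart, in the order DMSO, Corin, ATRA and combination. Against a floor of 3 counts over the DMSO group, DHRS3 was at least 83.6-fold higher with ATRA (adjusted p 3.35e-05, edgeR) and at least 710-fold higher with both agents (adjusted p 9.87e-07, edgeR). With Corin alone it was at least 2.45-fold higher, which rests on 7 counts (adjusted p 0.00753, edgeR), and the authors' deposited table gave p 0.149 for that comparison with no adjusted value. The combination was 8.51-fold above ATRA alone, a log2 change of 3.09 (SE 0.14, adjusted p 1.19e-05, edgeR).

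In U-937 DHRS3 started from a measurable level. The libraries held 3.51 and 2.82 CPM with DMSO, 97.7 and 114 CPM with ATRA, 7.85 and 5.65 CPM with Corin, and 204 and 214 CPM with both. The groups did not overlap and kept the order seen in SKNO-1. ATRA raised DHRS3 by 33.4-fold (log2 5.06, SE 0.16, adjusted p 4.16e-16, edgeR), and Corin alone by 2.14-fold (log2 1.10, SE 0.17, adjusted p 9.86e-05, edgeR). The combination raised it by 65.8-fold (log2 6.04, SE 0.16, adjusted p 6.32e-18, edgeR), 1.97-fold above ATRA alone (log2 0.98, SE 0.12). In TPM the step from ATRA to both was from 45.2 ± 1.83 to 75.1 ± 4.21.

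DHRS9, a retinol dehydrogenase on chromosome 2 (169064789 to 169096167, plus strand) that is expressed in macrophages, changed in U-937 and was low throughout in SKNO-1. U-937 libraries held 2.51 and 3.09 CPM with DMSO, 15.9 and 15.1 CPM with ATRA, 15.8 and 14.7 CPM with Corin, and 20.1 and 23.7 CPM with both. The 4 libraries of the single agents overlapped, all above DMSO and all below the combination. ATRA raised DHRS9 by 5.55-fold (log2 2.47, SE 0.16, adjusted p 7.41e-12, edgeR) and Corin by 5.47-fold (log2 2.45, SE 0.16, adjusted p 4.03e-11, edgeR). The combination was 7.83-fold above DMSO (log2 2.97, SE 0.16, adjusted p 4.56e-14, edgeR). It exceeded ATRA alone by a log2 of 0.50 (adjusted p 0.00324, edgeR), a call lost without combination replicate 2 (log2 0.37, adjusted p 0.062). In TPM the libraries of these groups overlapped, at 10.06 and 8.09 with ATRA and 9.87 and 10.48 with both.

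SKNO-1 libraries held only 8 to 17 counts of DHRS9 each, or 0.228 to 0.51 CPM, and the treatment groups overlapped. None of the 6 contrasts in that line was called for DHRS9, and its log2 changes from DMSO were 0.32 with ATRA, -0.39 with Corin and 0.03 with both, with SE of 0.42 to 0.45. The difference of the ATRA effect between the lines was tested in a model of all 16 libraries and was 2.20 on the log2 scale (SE 0.40, adjusted p 0.000582, edgeR). The difference of the Corin effect was 2.85 (SE 0.43, adjusted p 0.000164, edgeR).

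RDH10, which catalyses the first oxidation of retinol and lies on chromosome 8 (73294602 to 73325281, plus strand), was the member that fell. SKNO-1 libraries held 75.1 and 86.9 CPM with DMSO, 33.5 and 32.4 CPM with ATRA, 26.5 and 24.7 CPM with Corin, and 16.4 and 15.8 CPM with both. Every treated library was below both DMSO libraries, and the 4 groups did not overlap. RDH10 fell by 1.30 on the log2 scale with ATRA (SE 0.09, adjusted p 0.000113, edgeR), fell by 1.66 with Corin (SE 0.09, adjusted p 1.58e-05) and fell by 2.33 with both (SE 0.09, adjusted p 2.05e-06). The combination was below ATRA alone by 2.05-fold (adjusted p 0.000108, edgeR). It was below Corin alone by 1.59-fold (adjusted p 0.00427, edgeR), a call lost without Corin replicate 1 (adjusted p 0.0607) and without combination replicate 2 (adjusted p 0.0651).

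In U-937 RDH10 fell with ATRA but not detectably with Corin. Its libraries held 17.7 and 21.8 CPM with DMSO, 11.1 and 9.71 CPM with ATRA, 18.2 and 19.9 CPM with Corin, and 8.29 and 8.52 CPM with both. The Corin libraries lay between the 2 DMSO libraries, and the ATRA and combination libraries were below all of these. RDH10 fell by 0.92 on the log2 scale with ATRA (SE 0.14, adjusted p 6.74e-06, edgeR) and fell by 1.23 with both (SE 0.14, adjusted p 3.93e-08, edgeR). The change with Corin was -0.06 (SE 0.13, adjusted p 0.843), and the Corin effect differed between the lines by 1.61 (SE 0.17, adjusted p 2.35e-06, edgeR). The step from ATRA to both was -0.31 (adjusted p 0.0784) and was not called. RDH10 lies opposite the abundant ribosomal gene RPL7, with 0 shared exon bases. It also lies opposite the long noncoding gene RDH10-AS1, with 278 shared exon bases and 19 counts over the 16 libraries. The strand setting of the counting is not given in the sources used here. RPL7 differed from DMSO by -0.07 to 0.14 on the log2 scale in SKNO-1, with no call, and by -0.24 to -0.39 in U-937, where the combination was called (adjusted p 0.0119, edgeR).

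**Figure D2:**
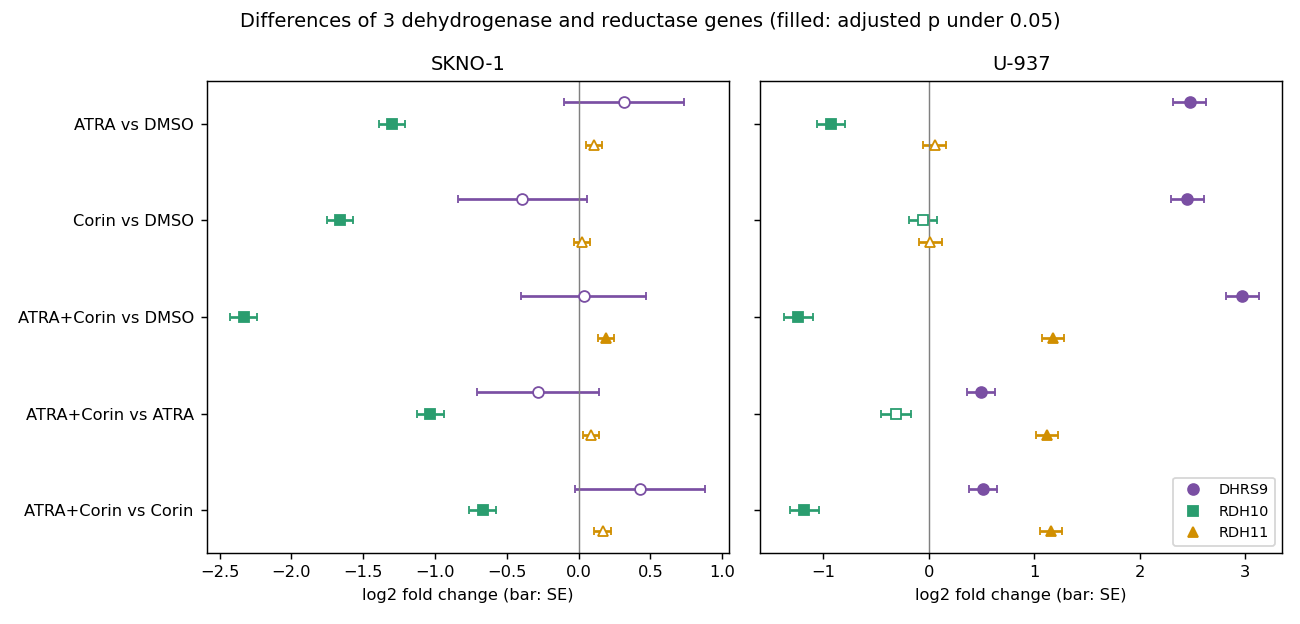
Log2 fold changes of DHRS9, RDH10 and RDH11 in 5 contrasts of each line, with bars of 1 SE; filled symbols have an edgeR adjusted p under 0.05. RDH10 lies left of 0 in all contrasts and reaches -2.33 in SKNO-1, while DHRS9 and RDH11 are called upwards mainly in U-937, DHRS9 at 2.97 and RDH11 at 1.18 with both agents.

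RDH11, a retinal reductase found in many tissues (chromosome 14, 67676800 to 67695793, minus strand), rose in U-937 with both agents and hardly moved otherwise. U-937 libraries held 103 and 119 CPM with DMSO, 113 and 117 CPM with ATRA, 121 and 103 CPM with Corin, and 234 and 266 CPM with both. The first 3 groups overlapped, and the combination stood above them all. The combination raised RDH11 by 2.26-fold (log2 1.18, SE 0.11, adjusted p 1.05e-09, edgeR), against log2 changes of 0.06 (SE 0.11, adjusted p 0.702) with ATRA and 0.02 (SE 0.11, adjusted p 0.946) with Corin. In TPM the same groups stood at 47.7 ± 5.10 with DMSO and 77.8 ± 1.71 with both.

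In SKNO-1 the RDH11 libraries held 71.8 and 74.3 CPM with DMSO, 78.9 and 78.4 CPM with ATRA, 74.8 and 73.8 CPM with Corin, and 84.3 and 82.5 CPM with both. The combination libraries lay just above the other 6. The combination was called against DMSO at a log2 of 0.19 (SE 0.06, adjusted p 0.0248, edgeR), and the call was lost with DESeq2 (adjusted p 0.135). It was also lost in each edgeR fit that left out 1 ATRA, Corin or combination library of SKNO-1 (adjusted p 0.0583 to 0.153), and was kept without either DMSO library. The authors' deposited table gave an adjusted p of 0.649 for it. In TPM the combination was not higher, at 26.0 ± 1.70 against 27.7 ± 6.67 with DMSO. RDH11 overlaps the protein-coding gene ENSG00000258466 on the same strand by 346 exon bases, and its estimated counts were fractional in all 16 libraries. That neighbour had 226 counts in all, 82 of them in U-937 with both agents and 21 in U-937 with DMSO.

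CRABP2, the cytoplasmic carrier of retinoic acid (chromosome 1, 156699606 to 156705816, minus strand), was rare in all libraries and responded to Corin in SKNO-1. Its SKNO-1 counts were 0 and 1 with DMSO, 3 and 0 with ATRA, 14 and 14 with Corin, and 21 and 24 with both. The groups with Corin stood above those without it. The ratio of scaled counts to DMSO was 29.4 with Corin (exact conditional 95% interval 4.86 to 1202, edgeR adjusted p 0.00831) and 49.9 with both (interval 8.51 to 2015, edgeR adjusted p 0.0022). The combination was 16.1 times ATRA alone (interval 5.18 to 81.1, edgeR adjusted p 0.00432). U-937 libraries held 8 to 23 counts in all groups, and none of its contrasts was called there. With both agents the 2 U-937 libraries held 23 and 8 counts, which spans the counts of every other U-937 group.

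Corin added to ATRA was compared with ATRA alone to ask what the second agent contributes. In SKNO-1 it changed 4 members, CYP26A1, DHRS3 and CRABP2 upwards and RDH10 downwards, with 44.8% of all genes called. That share was 27.0% and 27.7% without ATRA replicate 1 and 2, and 28.5% and 28.7% without combination replicate 1 and 2. In U-937 it raised 3 members, DHRS3, DHRS9 and RDH11, with 47.4% of all genes called and 22.5% called higher. Against Corin alone, the combination changed 3 members in SKNO-1, CYP26A1 and DHRS3 upwards and RDH10 downwards (10.4% of all genes called). In U-937 the combination changed 4, DHRS3, DHRS9 and RDH11 upwards and RDH10 downwards (60.5%). The SKNO-1 background of this last contrast was 38.9% without either DMSO library and 2.17% to 5.02% without any 1 of the other 6 libraries. CYP26A1 stood at 1437 times the Corin group in SKNO-1 (exact conditional 95% interval 257 to 56810). DHRS3 stood 8.13 higher on the log2 scale in SKNO-1 and 4.94 higher in U-937.

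Departure from additivity was the log2 change of the combination minus the sum of both single changes. In U-937, 2 members departed, 1 in each direction, with 23.4% of all genes called. For RDH11 the single changes summed to 0.07 and the combination gave 1.18, a departure of 1.10 (SE 0.15, adjusted p 5.22e-06, edgeR). For DHRS9 they summed to 4.92 and the combination gave 2.97, a departure of -1.96 (SE 0.21, adjusted p 1.07e-07, edgeR). For DHRS3 they summed to 6.16 against 6.04, a difference of -0.12 (SE 0.21, adjusted p 0.742). For RDH10 the departure was -0.25 (SE 0.19, adjusted p 0.397).

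In SKNO-1 edgeR called 0 members for additivity, with 0.463% of all genes called, 1 member at an unadjusted p under 0.05 and 1 member called by DESeq2. That member in each case was RDH10, whose single changes summed to -2.96 against -2.33 for the combination. Its departure was 0.63 (SE 0.13, adjusted p 0.101, edgeR), and it was called without DMSO replicate 1 (0.78, adjusted p 1.25e-05) and without DMSO replicate 2 (0.57, adjusted p 0.000109). The share of all genes called was 6.32% and 30.9% without DMSO replicate 1 and 2, and 0.0383% to 0.109% without any 1 of the other 6 libraries. For CYP26A1, DHRS3 and CRABP2 the DMSO group held 1, 0 and 1 counts, so a departure on the log2 scale could not be measured well. For CRABP2 it was -0.66 with an SE of 1.83.

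**Figure D3:**
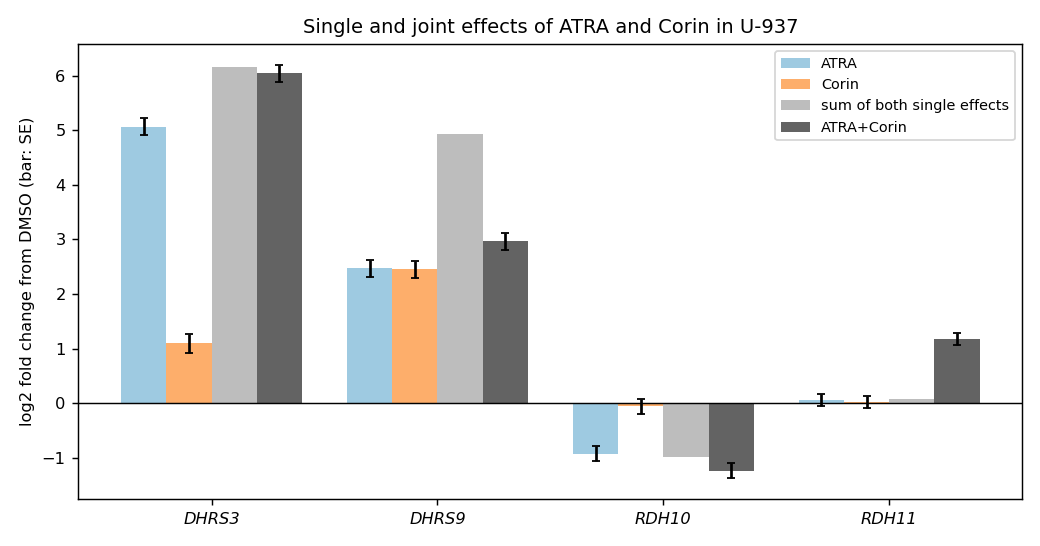
Log2 fold change from DMSO in U-937 for 4 members, with bars of 1 SE: ATRA (blue), Corin (orange), the sum of both single changes (light grey) and the measured combination (dark grey). The combination matches the sum for DHRS3 (6.04 against 6.16), falls short of it for DHRS9 (2.97 against 4.92) and exceeds it for RDH11 (1.18 against 0.07).

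The untreated lines differed in 5 of 6 tested members, with 64.8% of all genes called in the model of all 16 libraries. DHRS9 was higher in U-937 by 2.88 on the log2 scale (SE 0.27, adjusted p 1.3e-08, edgeR) and RDH11 by 0.47 (SE 0.10, adjusted p 0.000273, edgeR). RDH10 was 4.48-fold lower in U-937 (log2 -2.16, SE 0.12, adjusted p 7.33e-12, edgeR). DHRS3 had 0 counts in SKNO-1 against 195 in U-937, and CRABP2 had 1 against 35, both called higher in U-937. The response to ATRA differed between the lines for 3 members (19.4% of all genes called), that to Corin for 3 (12.8%) and that to the combination for 6 (40.6%). The 12.8% became 21.5% without SKNO-1 DMSO replicate 2, 7.75% and 7.3% without SKNO-1 Corin replicate 1 and 2, and 7.92% without U-937 DMSO replicate 1. Line and growth medium cannot be told apart in these contrasts.

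The wider pathway was read from a list of 37 further genes of retinoid transport, binding, oxidation, reduction, ester handling and carotenoid cleavage, of which 14 were tested in each line. ATRA alone changed 0 of 14 in SKNO-1 by edgeR, with 3 at an unadjusted p under 0.05 and 0 by DESeq2, where 6.75% of all genes were called. In U-937 ATRA changed 7, 5 upwards and 2 downwards, against 41.8% of all genes. Corin alone changed 6 in SKNO-1, 4 upwards and 2 downwards (37.9% of all genes), and 2 in U-937, both upwards (12.9% of all genes, 8.55% called higher). The combination changed 7 in SKNO-1, 5 upwards and 2 downwards (46.7% of all genes), and 13 in U-937, 8 upwards and 5 downwards (65.3%). The counts of 7, 6 and 7 of 14 were near the share called over all genes. With the combination the list had a median log2 change of 0.22 (SKNO-1) and 0.75 (U-937), against 0.05 and 0.03 over all genes. Genes such as RBP7 in SKNO-1 and RDH12 in U-937, at 0 counts with DMSO, passed the filter only through treated groups. The step from ATRA to the combination changed 7 genes of the list in SKNO-1 (44.8% of all genes), and 8 of its genes changed in U-937 (47.4%). By DESeq2 the U-937 counts were 4 for that step, 1 for Corin, 5 for ATRA and 10 for the combination. The SKNO-1 counts by DESeq2 were 7 for that step, 5 for Corin and 5 for the combination.

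Among the carriers, FABP5, which binds retinoic acid as well as fatty acids, moved in opposite directions in the 2 lines. U-937 libraries held 94.7 and 105 CPM of FABP5 with DMSO and 358 and 402 CPM with both, a log2 rise of 1.93 (SE 0.11, adjusted p 8.73e-14, edgeR). ATRA alone raised FABP5 there by 0.37 (adjusted p 0.00547), and the combination exceeded additivity by 1.66 (SE 0.15, adjusted p 6.32e-09, edgeR). In SKNO-1, FABP5 fell by 0.97 on the log2 scale with the combination, from 59.7 and 64.0 CPM to 32.3 and 30.8 CPM (SE 0.09, adjusted p 0.000118, edgeR). STRA6, the membrane receptor for retinol-binding protein, rose by 2.94 in U-937 with both agents, on 10 and 81 counts per group (adjusted p 0.000146, edgeR). The STRA6 replicates were uneven, at 9 and 1 counts with DMSO and 56 and 25 with both agents. CRABP1, the paralogue of CRABP2, rose by 1.44 with Corin in SKNO-1 (adjusted p 0.00603, edgeR). RBP7, a cellular retinol-binding protein, had 0 counts with DMSO in SKNO-1 and 29 with both agents, at least 10.7-fold higher.

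Among the enzymes of U-937 under the combination, RDH12, another retinaldehyde reductase, went from 0 to 124 counts over the group, at least 40.4-fold higher (adjusted p 1.68e-08, edgeR). BCO2, a carotenoid-cleaving dioxygenase, rose by 2.43 (SE 0.25), RDH5 by 2.06 (SE 0.53), and RETSAT, the retinol saturase, by 1.04 (SE 0.11). The retinaldehyde dehydrogenases went in different directions: ALDH1A1 fell by 1.96 (SE 0.35, adjusted p 2.78e-05) and ALDH1A2 rose by 1.59 (SE 0.53, adjusted p 0.0112, edgeR). The ALDH1A2 change rests on 15 and 46 counts per group. RDH16, which oxidises retinol, fell by 1.80 (SE 0.71, adjusted p 0.0279, edgeR), from 13 and 8 counts with DMSO to 3 and 3 with both agents. ALDH1A1 had 0 counts in all 4 SKNO-1 groups. In SKNO-1 RDH13 fell by 1.06 with Corin (SE 0.19, adjusted p 0.00343, edgeR). LIPE, a lipase that can release retinol from its esters, rose there by 1.31 with both agents (SE 0.43, adjusted p 0.0375, edgeR). The LIPE libraries were uneven with DMSO, at 54 and 21 counts, against 72 and 98 with both agents.

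**Figure D4:**
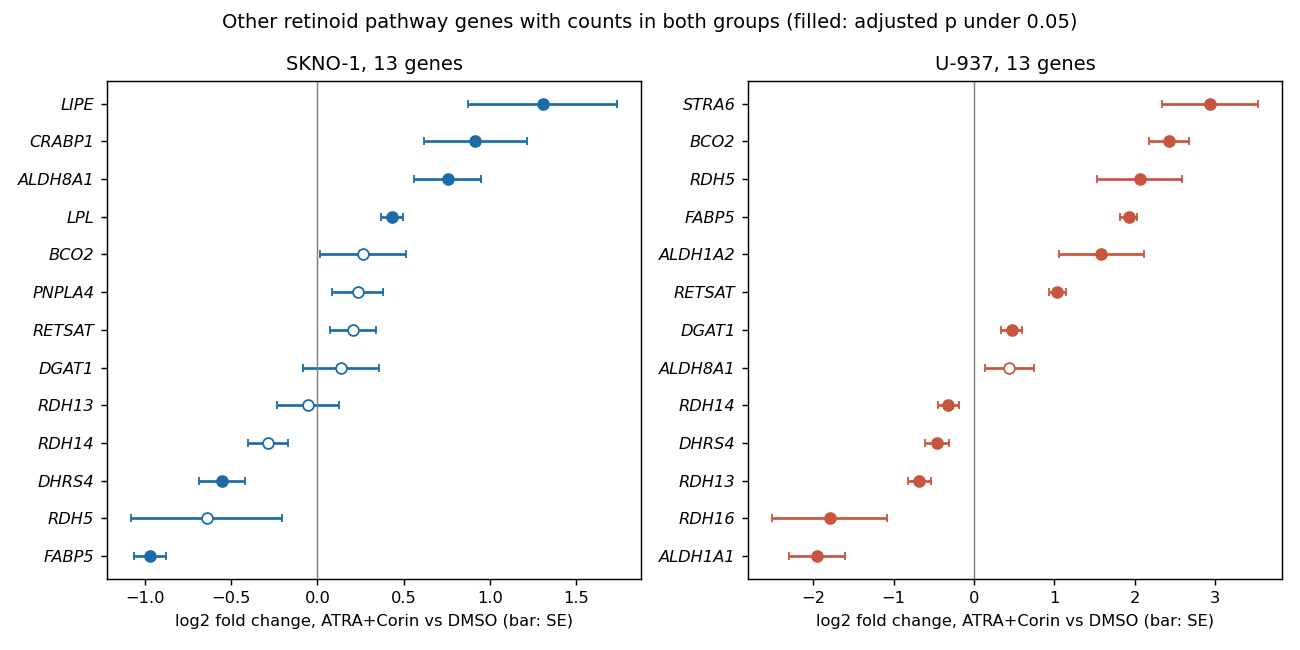
Log2 fold change of the combination against DMSO for the pathway genes that had counts in both groups, 13 in SKNO-1 and 13 in U-937, with bars of 1 SE; filled points have an edgeR adjusted p under 0.05. FABP5 is the lowest in SKNO-1 at -0.97 and among the highest in U-937 at 1.93, and in U-937 ALDH1A1 is the lowest at -1.96.

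Of the 6 receptors, 5 were tested in each line, and they did not all move in the same direction. RXRA fell by 1.10 with ATRA in SKNO-1 (adjusted p 0.00691, edgeR), where RARG rose by 2.76 with Corin (adjusted p 3.82e-05, edgeR). In U-937 RARG fell by 1.17 with ATRA (adjusted p 4.71e-05, edgeR) and rose by 0.77 with Corin (adjusted p 0.00569, edgeR). With the combination 4 receptors rose in SKNO-1 (3 by DESeq2, 46.7% of all genes called) and 3 in U-937 (2 by DESeq2, 65.3%). RARB, itself an ATRA target, had 0 counts with DMSO and with Corin in both lines. RARB is in both receptor counts and passed the filter only through groups with ATRA, so its calls are not independent of the filter. It had 42 counts with ATRA and 145 with both in SKNO-1, at least 14.4- and 53.6-fold higher, and 1443 and 1715 in U-937, at least 427- and 558-fold higher. CYP26A1 and RARB were thus both raised by ATRA in SKNO-1, while in U-937 RARB rose and CYP26A1 stayed at or under 3 counts.

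Genes with the most similar level across the 16 libraries were listed among 11832 protein-coding candidates by Pearson correlation of log2(CPM + 0.5), as a description. The libraries share their line and treatment, so high values were common. CYP26A1 was most like ADH1C (0.94), AOPEP (0.92) and ADAMTS14 (0.91). DHRS3 was most like THBD (0.98), SLC12A4 (0.98) and TLR5 (0.97), and DHRS9 like S100A9 (0.99), HTRA4 (0.98) and C2 (0.98). RDH10 was most like TMED8 (0.97), ATP2A2 (0.95) and DUSP3 (0.95), and RDH11 like ZSWIM7 (0.98), ZDHHC7 (0.97) and HIST3H2A (0.97). CRABP2 and CYP26B1 were below the mean of 0.5 CPM needed for this comparison.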

How the data were processed

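Estimated counts per gene came from RSEM after Trimmomatic and STAR on hg38, per the submitters' processing notes, and were deposited by the authors with TPM per library. How strand and read mates were used is not given in the sources used here. The authors also deposited log2 fold changes and p-values from DESeq2, which are quoted only as theirs. The series table and the library files held identical counts. FPKM per library, deposited by the authors beside TPM per the file headers, was not used. Counts were rounded, since 20.4% of positive values were not whole, which moved no library total by more than 74.52 counts.

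edgeR 4.0.16 in R 4.3.3 (filterByExpr, TMM, robust quasi-likelihood F test, no replicate block) was fitted to the 8 libraries of each line, with 17479 genes tested in the first line (SKNO-1) and 17717 in U-937, and to all 16 for contrasts between lines (19872 genes). A gene is called where its p, adjusted by Benjamini and Hochberg, is under 0.05. SE is the unshrunken log2 fold change over the root of F, and none is given where a group has 0 counts. Fitted log2 values of such genes depend on the prior count and are no bound. Against a group of 0 counts the fold is a lower bound at 3 counts over the group. With 1 to 3 counts a ratio with its exact conditional 95% interval is given. A permutation test of 1 gene cannot reach 0.05 with 2 libraries a group, so only model-based p-values are given. Alternatives were library totals alone, no filter on low counts, DESeq2 1.42.0, a replicate block, other sets of libraries in the fit, and leaving out each library.

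All 7 members were examined in every comparison, whether or not they passed the filter. Further pathway genes are named where called with an absolute log2 change of at least 1 in a contrast within a line. The members, the lists and the naming rule were chosen with earlier results of these data known. Gene positions and sites are from GENCODE v44 on GRCh38. Markers and other cell types were read from the authors' TPM. Deviations of same-numbered replicates correlated at -0.488 to 0.424 between groups of a line. Such values cannot show whether same-numbered libraries share a culture or day, so no pairing was assumed.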

Additional observations from a re-analysis of the deposited data

Results flagged for a closer look

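The responses of the 2 lines to the same treatment differed by an interaction test in the model of all 16 libraries (edgeR, Benjamini-Hochberg adjustment) for 12 pairs of gene and treatment. Each value is the log2 change in U-937 minus that in SKNO-1. DHRS9 responded more in U-937, by 2.20 with ATRA, 2.85 with Corin and 2.98 with both agents (adjusted p 1.09e-05 for both). RDH10 fell less in U-937, by 1.61 with Corin and 1.15 with both (adjusted p 2.54e-05 for both). RDH11 rose more in U-937 with both, by 1.03 (adjusted p 4.89e-06).

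For the other 6 values a group with 0 or 1 counts enters the contrast, so the sizes depend on the prior count and are not folds. CYP26A1 gave -9.93 with ATRA (adjusted p 0.000378) and -13.96 with both (adjusted p 1.98e-05), since U-937 never left the floor. DHRS3 gave -4.84 with ATRA (adjusted p 0.00999) and -6.94 with both (adjusted p 8.66e-06), where SKNO-1 started from 0 counts. The DHRS3 difference with ATRA lost its call without SKNO-1 DMSO replicate 1 (adjusted p 0.0564) or replicate 2 (adjusted p 0.0626). CRABP2 gave -4.45 with Corin (adjusted p 0.0158) and -5.52 with both (adjusted p 0.000519). The CRABP2 difference with Corin lost its call with DESeq2 (adjusted p 0.053), without SKNO-1 DMSO replicate 1 (adjusted p 0.0557) and without U-937 DMSO replicate 2 (adjusted p 0.0647).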

How the results depend on the processing

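Depth limits CYP26A1, CYP26B1, DHRS3 and CRABP2 where groups held 0 to 3 counts, and with 2 libraries per group each left-out library leaves a lone sample that is assumed to vary like the others. The number of members called moved by over 1.5 times only for the departure from additivity in SKNO-1, which was 0 in the main analysis and 1 with no filter on low counts and with DESeq2, and ran from 0 to 1 when each library was left out. In all 3 kinds of setting the member was RDH10, and the cause was not tested. RDH11 with both agents in SKNO-1 lost its call with library totals alone (adjusted p 0.0806), no filter (0.15), DESeq2 (0.135), only the groups compared (0.127) and 6 of the 8 left-out libraries. With the replicate block, for which the labels give no basis, it gave 0.19 with an adjusted p of 0.0506 (edgeR). The members called with both agents in SKNO-1 then went from 5 to 4. The block changed no other member's call. Changes that were not called switched sign as follows. DHRS9 with both agents in SKNO-1 was -0.0017 with DESeq2, and RDH11 with ATRA in U-937 was -0.0142 with library totals alone. Leaving out each library moved DHRS9 in SKNO-1 between -0.0221 and 0.67 (ATRA against DMSO), -0.27 and 0.42 (both against DMSO), -0.50 and 0.0289 (both against ATRA) and -0.24 and 0.46 (additivity). It moved CRABP2 in SKNO-1 between -2.29 and 3.65 (ATRA against DMSO) and -2.88 and 3.05 (additivity), and in the difference of the ATRA response between lines between -4.36 and 1.60. It moved CRABP2 in U-937 between -0.27 and 0.60 (Corin against DMSO), -1.05 and 0.24 (both against DMSO), -0.38 and 0.90 (both against ATRA), -1.16 and 0.12 (both against Corin) and -0.49 and 0.79 (additivity). It moved CYP26A1 in SKNO-1 between -2.27 and 2.33 (Corin against DMSO) and -0.51 and 4.05 (additivity). It moved RDH11 between -0.0233 and 0.0325 (Corin, SKNO-1), -0.0457 and 0.17 (ATRA, U-937), -0.11 and 0.13 (Corin, U-937), -0.17 and 0.0415 (ATRA response between lines) and -0.10 and 0.12 (Corin response between lines). It moved RDH10 with Corin in U-937 between -0.21 and 0.10, and the additivity of DHRS3 in U-937 between -0.33 and 0.15. The other gene and contrast pairs kept their sign under every alternative run.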
